A study of Mus musculus with 14 samples.

Results

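Chromosomes 11, 17 and 19 of the mouse are described here through the accessible regions that ATAC-seq found on them in hippocampal neuronal nuclei. The members are the regions of the deposited region-by-library table that lie on these chromosomes and have a mean of at least 0.83 RPKM (read density scaled for region length and library depth) over the 14 libraries. They number 14102 of the 191271 regions in the table, with 7556 on chromosome 11, 3477 on chromosome 17 and 3069 on chromosome 19. The last region inside the limit, chr17:69613400-69613899 (mm9), had a mean of 0.8302 RPKM, and the first outside it, chr11:52686450-52686929, had 0.8299 RPKM. A further 660, 533 and 363 regions of the 3 chromosomes lay under the limit and were tested only in the setting with no filter. The comparison set was the 151126 regions past the same limit on 15 other autosomes (1 to 6, 8 to 10, 12 to 16 and 18), called the reference autosomes below. Chromosome 7 was kept apart from both.

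The study followed chromatin accessibility through phases of memory in mice that received a foot shock on day 0 to condition fear of a context. All 4 groups combined ArcCreERT2 with R26R-STOP-floxed- yellow fluorescent protein (eYFP), with the genotype given as +/+. All mice were housed in the dark before training and received 4-hydroxytamoxifen ahead of it. Cre recombinase driven by Arc, a gene that neurons switch on when active, turns on yellow fluorescent protein permanently in cells that were active while the drug was present. Nuclei were stained for NeuN, Arc and GFP and sorted, and the design text gives 10000 nuclei per condition from pooled hippocampi of 10 to 12 mice. It states 3 biological replicates, while Basal and Late have 4 libraries each, so some of these 4 may not be separate biological replicates, and n counts libraries throughout. The Basal group (4 libraries) and the Early group (3 libraries) were collected on day 0 without recall. Their treatment labels are identical and only the titles tell them apart. The Late group (4 libraries) was collected on day 5 without recall. The Reactivated group (3 libraries) was given recall on day 5 and was collected on days 5, 6 and 7 for replicates 1, 2 and 3. The labels do not say which mice went into which library, nor which stain defined each sorted group, so the p-values below measure the spread between libraries, and the groups can differ in the sorted population as well as in the phase. The table holds positions only, so the neuronal identity of the nuclei could not be checked against marker genes.

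ATAC-seq uses the Tn5 transposase, which cuts and tags DNA where nucleosomes and bound proteins leave it exposed, so read density over a region follows how open its chromatin is. Open regions of the genome are mostly promoters and enhancers, and chromosomes rich in genes are generally rich in early-replicating, open chromatin. In neurons, strong activity is known to change accessibility at enhancers near activity-regulated genes. Read density also depends on how many reads of a library fall outside the regions, so each library was divided here by its own median over the whole table before libraries were compared.

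These chromosomes were among the most gene-dense of the 19 autosomes in the RefSeq gene table (GRCm38.p6), which gave 13.2 protein-coding genes per Mb for chromosome 11, 11.1 for chromosome 17 and 11.5 for chromosome 19. The reference autosomes had 7.48 per Mb and chromosome 7 had 13.3, so that only chromosome 7 was denser than chromosome 11, and chromosomes 19 and 17 followed. Their accessible regions were sparser, not denser, than elsewhere. The table held 67.5 regions per Mb on chromosome 11, 42.1 on chromosome 17 and 55.9 on chromosome 19, against 81.8 on the reference autosomes and 26 on chromosome 7. Over the 19 autosomes, genes per Mb and regions per Mb ran in opposite orders (Spearman's rho -0.737, a description over chromosomes that share the same libraries). Gaps were measured between all neighbouring regions, including those under the limit. Their median was 7.57 kb on chromosome 11, 11.2 kb on chromosome 17 and 9.25 kb on chromosome 19, against 6.33 kb on the reference autosomes.

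In width and level the members resembled the rest of the table. Their median length was 551 bases on chromosome 11, 499 on chromosome 17 and 506 on chromosome 19, against 530 on the reference autosomes. The median of the mean RPKM was 1.37 on chromosome 11 and 1.34 on both other chromosomes, against 1.37. Regions with a mean over 3 RPKM made up 4.06% of chromosome 11, 3.08% of chromosome 17 and 3.68% of chromosome 19, against 4.13% of the reference autosomes.

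Depth differed little in total and more in the part that fell inside regions. Total reads recovered from the RPKM steps ranged from 46134253 to 56251676 per library, and the 4 Late libraries lay lowest, at 46134253 to 47375212. All Basal and Early libraries and Reactivated replicates 2 and 3 had nearly the same total, 54257222 to 54269492, and Reactivated replicate 1 had 56251676. Whether those libraries were brought to a common depth was not tested, and any such step would be confounded with the Late group. The in-region share of the total reads was 13.2% to 19.3% in Basal and 18.4% to 20% in Late. Early replicates 1, 2 and 3 had 13.8%, 27.8% and 18.1%, and the Reactivated libraries had 21.3% to 24%. The median member held 25 to 50 reads per library, so single regions are measured with few reads and a chromosome or window median rests on many. Spread between replicates also differed between groups: the chi-square per region between pairs of libraries over the members was 1.77 to 2.03 in Late and 2.47 to 5.71 in the other groups, where sampling alone gives about 1.

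Relative to the reference autosomes, chromosomes 17 and 11 stood lower in Early than in Basal, and chromosome 19 did not. The first measure was the median RPKM of a chromosome's members divided by the median over the reference autosomes in the same library. On chromosome 17 this ratio was 1.07, 0.97, 1.05 and 1 in Basal replicates 1 to 4, and 0.715, 0.858 and 0.82 in Early replicates 1 to 3. It was 0.938, 1.03, 0.963 and 1.02 in the Late replicates and 1.15, 1.04 and 1.05 in the Reactivated replicates. All 3 Early libraries lay under all 11 others. On chromosome 11 the ratio was 1.01 ± 0.0289 (SD, n = 4) in Basal, 0.913 ± 0.0544 (SD, n = 3) in Early, 0.996 ± 0.034 (SD, n = 4) in Late and 1.09 ± 0.0637 (SD, n = 3) in Reactivated, with the 3 Early values again the lowest of the 14. On chromosome 19 it was 0.966 ± 0.082 (SD, n = 4), 0.956 ± 0.12 (SD, n = 3), 0.943 ± 0.0332 (SD, n = 4) and 1.06 ± 0.0169 (SD, n = 3) in the same order, and the Early values of 0.821, 1.05 and 0.998 overlapped the Basal ones, with 1 below and 2 inside their range.

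The second measure, the chromosome offset, compared each region with itself across groups. For each library it is the median over a chromosome's members of the log2 level (RPKM over the column median, plus 0.25) less the region's mean over the 4 groups, and less the same median over the reference autosomes. On chromosome 17 the offset was 0.13, 0.03, 0.11 and 0.08 in Basal and -0.31, -0.15 and -0.18 in Early. It was -0.03, 0.06, -0.00 and 0.05 in Late and 0.21, 0.07 and 0.07 in Reactivated. The Early and Basal libraries did not overlap, and the mean difference was -0.30, or -18.8% on the linear scale. On chromosome 11 the offset was 0.06, -0.01, 0.04 and 0.01 in Basal, -0.17, -0.07 and -0.06 in Early, -0.06, 0.02, -0.02 and 0.03 in Late and 0.17, 0.07 and 0.04 in Reactivated. Early and Basal again did not overlap, with a difference of -0.13. On chromosome 19 it was 0.14, 0.00, -0.05 and -0.08 in Basal and -0.16, 0.07 and 0.05 in Early. Those 2 groups overlapped, with a difference of -0.02.

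**Figure D1:**
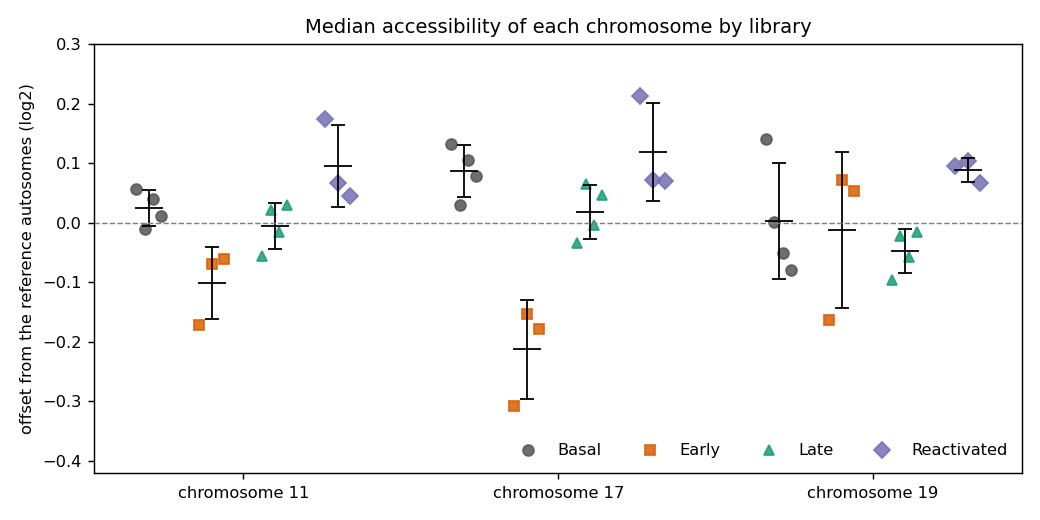
Chromosome offset in log2 units (vertical axis) of each of the 14 libraries on chromosomes 11, 17 and 19, with groups as symbols and the bar and whiskers as the group mean ± SD. The 3 Early libraries lie between -0.31 and -0.15 on chromosome 17, under every other library, while on chromosome 19 they spread from -0.16 to 0.07.

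With 3 libraries against 4, the smallest 2-sided p that the exact permutation test can give is 0.0571, and it was reached for chromosome 17 and for chromosome 11 in Early against Basal (0.147 each after adjustment over the 18 tests). For chromosome 19 the exact p was 0.857. The difference between chromosomes was tested too, after the values were seen, in 3 tests. Chromosome 17 stood lower than chromosome 19 in this contrast by a difference of -0.28 (exact permutation p = 0.0571, adjusted 0.0857) and lower than chromosome 11 by -0.17 (exact permutation p = 0.0571, adjusted 0.0857). Chromosome 11 and chromosome 19 differed by -0.11 (exact permutation p = 0.171). No offset could pass 0.05 in this contrast by design. With the in-region read share as covariate the values of chromosomes 17 and 11 were -0.34 and -0.15, and with a pseudocount of 1, which compresses low levels, they were -0.19 and -0.08.

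Early and Late, and Late and Reactivated, were set apart on the same scale. Late lay above Early on chromosome 17 by 0.23 and on chromosome 11 by 0.10 (exact permutation p = 0.0571 for both), and the groups did not overlap. On chromosome 19 Late less Early was -0.03 (exact permutation p = 0.629). Late less Basal was -0.03, -0.07 and -0.05 on chromosomes 11, 17 and 19, with exact permutation p-values of 0.314, 0.114 and 0.429 in a design that can reach 0.0286.

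Reactivated lay above Late on all 3 chromosomes, with the largest difference on chromosome 19. On chromosome 19 the Reactivated offsets of 0.10, 0.10 and 0.07 all exceeded the Late values of -0.10, -0.02, -0.06 and -0.02, a difference of 0.14. On chromosomes 11 and 17 the differences were 0.10 each, and every Reactivated library lay above every Late library. All 3 tests gave the smallest exact permutation p of 0.0571 (0.147 after adjustment). Reactivated replicate 1, the library collected on the day of recall, was the highest of its group on chromosomes 11 and 17, and without it the differences there were 0.06 and 0.05. On chromosome 19 the value without it was 0.14. With the in-region read share as covariate, a share that was higher in every Reactivated library than in every Late one, the differences on chromosomes 11, 17 and 19 were 0.07, 0.06 and 0.07. With a pseudocount of 1 they were 0.06, 0.06 and 0.09. With a single library on each collection day, day and library cannot be told apart.

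Against Basal, Reactivated differed by 0.07, 0.03 and 0.09 on chromosomes 11, 17 and 19 (exact permutation p = 0.114, 0.629 and 0.229). With the in-region read share as covariate these became 0.02, -0.04 and -0.03, so the sign turned on chromosomes 17 and 19. Against Early it differed by 0.20, 0.33 and 0.10 (exact permutation p = 0.1, 0.1 and 0.2, where 0.1 is the smallest that 3 libraries against 3 can give). The chromosome 19 value ran from 0.0294 without Early replicate 1 to 0.1477 without Early replicate 2.

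Set among all 19 autosomes, chromosome 17 had the second largest and chromosome 11 the third largest difference between Early and Basal in size, behind chromosome 7 at -0.57, while chromosome 19 ranked 13. In Reactivated against Late, chromosome 19 ranked first and chromosome 7 second, with chromosomes 11 and 17 tied behind them. In Early against Basal, coding genes per Mb and the differences had a Spearman's rho of -0.339 and a Pearson's r of -0.651 over the 19 autosomes, and a rho of 0.186 over the 15 reference autosomes alone. For regions per Mb the same values were 0.567, 0.766 and 0.315. In Reactivated against Late, genes per Mb gave 0.632, 0.874 and 0.264, and regions per Mb gave -0.752, -0.795 and -0.54. The rho over the reference autosomes alone was smaller in size in these cases. For genes in Early against Basal its sign turned. The other comparisons differed. For regions per Mb, rho over the 19 autosomes and the 15 reference autosomes was -0.0641 and -0.815 in Late against Basal. It was -0.829 and -0.931 in Late against Early, -0.587 and -0.892 in Reactivated against Basal, and -0.959 and -0.949 in Reactivated against Early. For genes per Mb it was larger in size over the reference autosomes in the comparisons of Late and Reactivated with Basal. In those with Early it was smaller. These are descriptions over chromosomes measured in the same libraries.

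**Figure D2:**
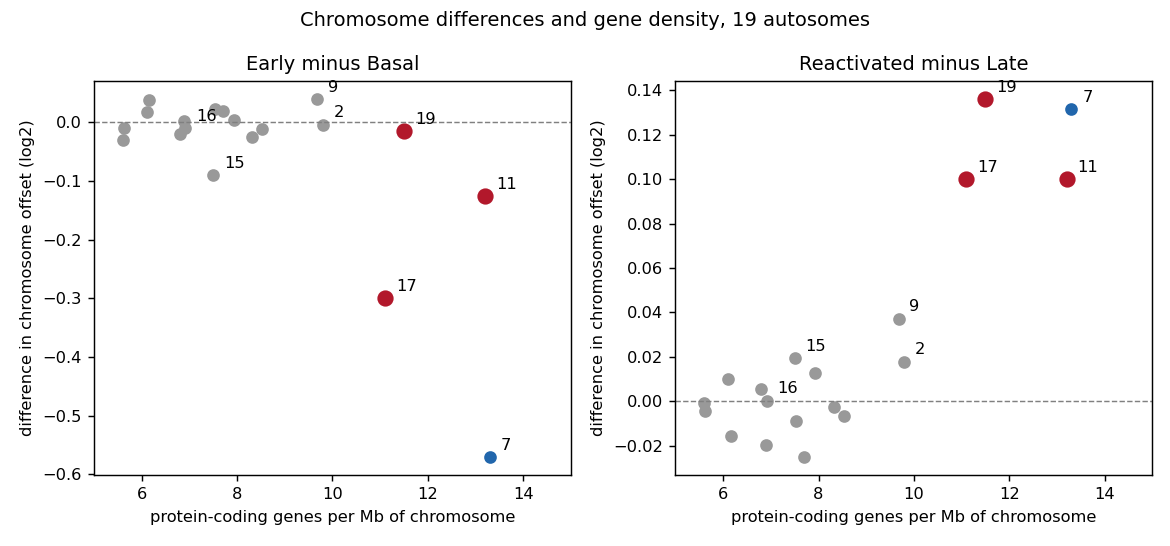
Difference in chromosome offset (log2, vertical axis) against protein-coding genes per Mb (horizontal axis) for the 19 autosomes, with chromosomes 11, 17 and 19 in red, chromosome 7 in blue and the reference autosomes in grey. In the left panel chromosome 19, at 11.5 genes per Mb, lies by the grey points at -0.02 and chromosome 17, at 11.1, lies at -0.30; in the right panel chromosomes 11, 17 and 19 lie at 0.10, 0.10 and 0.14.

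The same contrast could be read in raw shares of reads, with no scaling. Of the reads inside regions, chromosome 17 took 2.26% to 2.52% in Basal and 1.59% to 1.73% in Early. Its share was 1.84% to 2.01% in Late and 2.11% to 2.31% in Reactivated. Early lay below all other groups, and Late lay below Basal and Reactivated. Part of the Basal and Reactivated share sat in 1 region, described at the end. Without it the ranges were 1.96% to 2.13%, 1.47% to 1.62%, 1.8% to 1.97% and 1.9% to 2.07%, so Early remained apart and Late overlapped both others. Chromosome 11 took, in the order Basal, Early, Late and Reactivated, 4.6% to 4.89%, 4.17% to 4.38%, 4.36% to 4.58% and 4.55% to 5.13%. For chromosome 19 the shares were 1.68% to 1.94%, 1.53% to 1.8%, 1.58% to 1.68% and 1.74% to 1.83%.

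Within each chromosome the difference between Early and Basal was concentrated in stretches and ran the other way elsewhere. Each chromosome was divided into windows of 5 Mb counted from its first base, and a window's value in a library is the median log2 level of its regions less that of the reference autosomes. Of the member windows, 57 held at least 20 regions (25, 19 and 13 on chromosomes 11, 17 and 19), and 1 window of chromosome 17 with 9 regions was left out. In Early against Basal 40 of the 57 passed an adjusted p of 0.05 by limma, 12 higher and 28 lower. Of all 501 autosomal windows 60.1% passed, 26.1% higher and 33.9% lower, so a called window is common in this contrast. Lower windows made up 13 of 19 on chromosome 17, 11 of 25 on chromosome 11 and 4 of 13 on chromosome 19. Higher windows numbered 2, 6 and 4 in the same order. Of the 40 called windows 14 did not pass when some single library was left out.

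On chromosome 17 the 6 windows between 20 and 50 Mb were all lower in Early, by -1.04 to -0.52. The window from 20 to 25 Mb was the lowest of the chromosome. Its values were 0.28, 0.20, 0.49 and 0.33 in Basal, -0.73, -0.74 and -0.66 in Early, 0.03, 0.29, -0.13 and 0.16 in Late and 0.25, 0.13 and 0.08 in Reactivated. The 3 Early libraries lay close together and under all others, and the difference from Basal was -1.04 ± 0.09 (SE; limma adjusted p = 1.17e-06). The window from 35 to 40 Mb was nearly as low, at -0.99 (limma adjusted p = 1.2e-06), and the same 6 windows were lower in Late than in Basal as well, by -0.39 to -0.19. None of these 6 lost its call in Early against Basal when 1 library was left out, while in Late against Basal the windows from 20 to 25 Mb and 30 to 45 Mb each did, for 4 or 5 of the Basal and Late libraries. Shorter lower stretches ran from 5 to 15 Mb, 65 to 75 Mb and 80 to 90 Mb, of which the windows from 5, 70, 80 and 85 Mb did not pass without Early replicate 1. At the far end of the chromosome the sign turned. The window from 90 to 95 Mb was -0.49, -0.55, -0.50 and -0.48 in Basal and -0.39, 0.16 and -0.18 in Early, and reached 0.10, 0.04, 0.08 and -0.02 in Late. It was higher in Early by 0.37 (limma adjusted p = 0.00572; 0.2214 without Early replicate 2) and in Late by 0.55 (limma adjusted p = 0.000655), the largest rise in Late among the 57 windows.

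Chromosome 11 alternated. Its windows from 10 to 20 Mb and from 40 to 50 Mb were higher in Early by 0.16 to 0.22 and by 0.17. From 50 to 80 Mb all 6 windows were lower, by -0.70 to -0.20. Those from 50, 55 and 60 Mb did not pass without Early replicate 1, nor did the higher window from 15 Mb. The one from 60 Mb also did not pass without Early replicate 2 (-0.20, limma adjusted p = 0.0609). The lower stretches from 95 to 105 Mb (-0.63 and -0.61) and from 115 to 125 Mb (-0.84 and -0.72) kept their calls whichever library was left out. The last window, from 120 to 125 Mb with 72 regions, was the lowest. It held 0.37, 0.27, 0.37 and 0.44 in Basal, -0.54, -0.53 and -0.36 in Early, -0.21, 0.12, -0.09 and 0.01 in Late and 0.44, 0.15 and 0.24 in Reactivated. All Early libraries lay under all others, and the difference from Basal was -0.84 ± 0.08 (SE; limma adjusted p = 2.48e-06).

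Chromosome 19 carried the same kind of stretch at its start, and windows of both signs followed. The window from 0 to 5 Mb was 0.49, 0.21, 0.47 and 0.52 in Basal, -0.67, -0.54 and -0.43 in Early, 0.04, 0.34, -0.01 and 0.15 in Late and 0.73, 0.42 and 0.20 in Reactivated. Early was lower than Basal by -0.97 ± 0.12 (SE; limma adjusted p = 3.15e-05), and the next window, from 5 to 10 Mb, by -0.90 (limma adjusted p = 1.17e-06). From 15 to 25 Mb the windows were higher in Early, by 0.24 and 0.23, and the window from 50 to 55 Mb was higher by 0.30 (limma adjusted p = 0.0104). The window from 30 to 35 Mb was higher by 0.19, while those from 10 to 15 Mb and 40 to 45 Mb were lower, by -0.21 each. Most of these calls rested on single libraries. Without Early replicate 2, of the 4 higher windows the one from 15 Mb passed (0.16, limma adjusted p = 0.0416), and those from 20, 30 and 50 Mb did not (0.15, 0.16 and 0.22; limma adjusted p = 0.152, 0.107 and 0.0504). Without Early replicate 1 the lower windows from 10 and 40 Mb did not pass (-0.12 and -0.13). The 2 windows from 0 to 10 Mb passed whichever library was left out. The median over the 13 windows was 0.05, against -0.23 on chromosome 17 and -0.13 on chromosome 11.

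On chromosomes 11 and 19, windows that were lower in Early held fewer accessible regions at the median than windows that were higher. On chromosome 11 the lower windows had a median of 232 regions and the higher ones 403. On chromosome 19 the medians were 186 and 294. On chromosome 17 they were 192 and 216, but its higher windows were only 2, with 150 and 283 regions. Its windows that were not called had a median of 140. Over the 57 windows Spearman's rho between the number of regions and the difference was 0.617 (0.783 on chromosome 11, 0.375 on chromosome 17 and 0.604 on chromosome 19), and over 414 windows of the reference autosomes it was 0.259. Counts were not scaled for the sequence that a window covers. The lower window of chromosome 11 from 120 Mb, with 72 regions, is partial, since the last region ends at 121709553. Windows of a chromosome adjoin and share libraries, so these are descriptions.

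**Figure D3:**
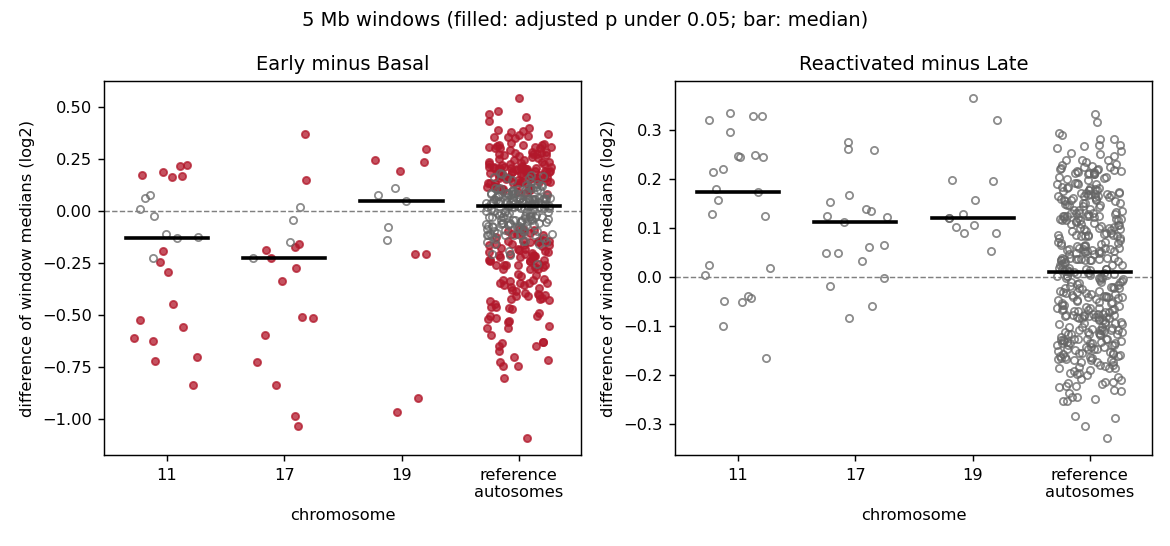
Difference of 5 Mb window medians (log2, vertical axis) by chromosome, for Early minus Basal at left and Reactivated minus Late at right. Each point is a window, filled where the adjusted p is under 0.05, and the bar is the median: on chromosome 17 the Early windows reach down to -1.04 around a median of -0.23. In Reactivated minus Late no point is filled, and 47 of 57 member windows and 219 of 414 reference windows lie above zero.

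In Late against Basal 18 of the 57 windows passed, 5 higher and 13 lower, where 37.3% of all windows passed (18% higher and 19.4% lower). Lower stretches were the windows of chromosome 17 from 20 to 50 Mb, chromosome 11 from 115 to 125 Mb (-0.41 and -0.32) and chromosome 19 from 0 to 10 Mb (-0.38 and -0.29), all 3 of them within the stretches that were lower in Early. Late stood above Early in 25 windows and below it in 4, where 38.5% of all windows passed (27.3% higher and 11.2% lower). All 10 windows of chromosome 17 from 0 to 50 Mb were higher in Late than in Early, by 0.27 to 0.80, and all 10 were higher in Reactivated than in Early too, by 0.36 to 0.88. In Reactivated against Early 37 of the 57 windows were higher and 5 lower, where 74.3% of all windows passed (43.1% higher and 31.1% lower). In Reactivated against Basal 5 were higher and none lower, where 21.8% passed (10.8% higher and 11% lower). With the in-region read share as covariate that count fell to 0, with 4 windows at an unadjusted limma p under 0.05. These comparisons share their libraries, so their values stand side by side and are not independent of each other.

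In Reactivated against Late no window of the 57 passed by limma, nor did any other autosomal window (background 0%). An unadjusted limma p under 0.05 was found in 24 of the 57 and in 215 of all 501 windows, so this count stood near the background. The smallest limma adjusted p was 0.0578 in both sets. The median difference was 0.17 on chromosome 11, 0.11 on chromosome 17 and 0.12 on chromosome 19, against 0.01 on the reference autosomes. All 13 windows of chromosome 19 lay above zero, as did 19 of 25 on chromosome 11 and 15 of 19 on chromosome 17. The same held for 219 of the 414 reference windows and 289 of all 501 windows. The highest was the window from 5 to 10 Mb of chromosome 19, with -0.16, 0.12, -0.11 and -0.00 in Late and 0.46, 0.30 and 0.22 in Reactivated. Its difference was 0.36 (limma adjusted p = 0.0578), and this window was also among the lowest in Early. On chromosome 11 the highest was the window from 95 to 100 Mb, at 0.33 (limma adjusted p = 0.0578), and on chromosome 17 the one from 25 to 30 Mb, at 0.27 (limma adjusted p = 0.0717; 0.1567 without Reactivated replicate 1). The fit called 19 windows without Reactivated replicate 3, 5 without Early replicate 1 and 1 without Late replicate 2. Early less Basal and Reactivated less Late share no library, and over the 57 windows they ran in opposite orders (Spearman's rho -0.748), as they did over the 414 reference windows (-0.894).

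The size of the difference on chromosome 17 followed the width of the regions. Offsets were recomputed within length classes, each against reference regions of the same class. In Early less Basal on chromosome 17 the value was -0.13 for regions under 200 bases, -0.18 from 200 to under 500, -0.35 from 500 to under 1000 and -0.45 at 1000 or more. Chromosome 11 ran from -0.01 to -0.18 over the same classes. Chromosome 19 changed sign, from 0.17 in the narrowest class to -0.15 in the widest. In Late less Basal chromosome 17 changed sign too, from 0.22 to -0.27. Split by mean level, chromosome 17 ran from -0.25 in the lowest quartile to -0.42 in the highest. These class values are group means with no test.

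At single regions, 2752 of the 14102 members passed an adjusted p of 0.05 by limma in Early against Basal (19.5%), where 14.6% of all tested regions passed. Of the members 860 were higher (6.1%, against 8.06% of all tested regions) and 1892 lower (13.4%, against 6.54%). Chromosome 17 had 712 lower (20.5%) and 144 higher (4.14%). Chromosome 11 had 869 lower (11.5%) and 477 higher (6.31%), and chromosome 19 had 311 lower (10.1%) and 239 higher (7.79%). Among regions of 1000 bases or more on chromosome 17, 40% were lower and 1.61% higher, against 8.11% and 7.85% on the reference autosomes. The split depends on the scale. Counts of members under other settings, here and below, stand without the share of all tested regions and describe only how the calls moved. With the deposited RPKM, unscaled, 1777 members passed, 1251 higher and 526 lower, since the median of all tested regions then lay at 0.27 in log2 and that of the members at 0.15, against 0.00 and -0.12 after division by the column medians. Without Early replicate 2 the scaled count was 1139. Groups without overlap, a count that needs no model, gave 1275 members higher in Early (9.04%, against 12.2% of all tested regions) and 2746 lower (19.5%, against 11.3%).

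**Figure D4:**
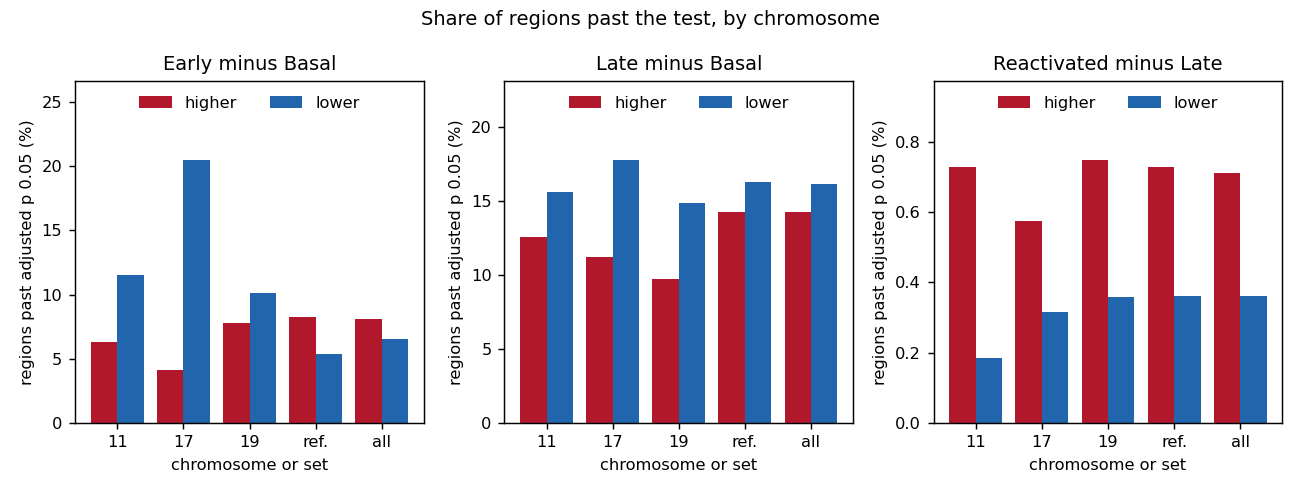
Percentage of regions past an adjusted p of 0.05 (vertical axes, each with its own scale) that were higher or lower, for chromosomes 11, 17 and 19, the reference autosomes (ref.) and all tested regions (all), in 3 comparisons. In Early minus Basal the lower share is 20.5% on chromosome 17 and 5.33% on the reference autosomes, and in Late minus Basal the lower shares run from 14.9% to 17.8%.

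The regions below were picked by a fixed rule: past the test, with groups that did not overlap and a mean level above the median, the largest fold changes on each chromosome. That mean is over all 14 libraries, so a region could clear the median through the group in which it was high. Outside that group the mean was 0.964 RPKM at chr11:75385086-75385216 and 1.26 at chr17:61464894-61465265, against 1.75 at chr11:27382853-27383278. The median was 1.37 RPKM on the reference autosomes. Changes at the named regions are therefore given as a description. All positions are in mm9, for which no gene annotation was used, so no gene is named. Levels are printed as deposited RPKM, while log2 changes compare levels divided by the column median. On chromosome 11 the largest rises in Early were at chr11:27382853-27383278 and chr11:91194203-91194896. The first held 0.347 to 0.434 RPKM in Basal and 1.78, 7.89 and 2.21 in Early, then 2.19 to 3.68 in Late and 1.91 to 2.68 in Reactivated. Basal was the only low group, and the log2 change in Early was 2.06 ± 0.27 (SE; limma adjusted p = 0.00125). The second held 0.16 to 0.266 RPKM in Basal and 1.17 to 4.23 in the other 10 libraries, a log2 change of 1.93 in Early (limma adjusted p = 0.00115) and 1.97 in Late (limma adjusted p = 0.000279). On the other chromosomes the top rises were 1.70 at chr17:61464894-61465265, 1.66 at chr17:15759984-15760148, 2.07 at chr19:50840739-50840998 and 2.00 at chr19:17088310-17088466. Each of these 4 was also higher in Late than in Basal by 1.41 to 2.03 in log2. The rule picked these regions by their Early and Basal levels. Comparisons of either group with Late reuse those libraries, so here and in the falls below they are not independent of the choice.

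The named falls in Early were at narrow regions. At chr11:75385086-75385216, 130 bases wide, Basal held 3.26, 2.41, 3.54 and 2.13 RPKM and Early 0.284, 0.284 and 1.13, with 0.667 to 1.14 in Late and 0.851 to 1.91 in Reactivated. Basal lay above all other libraries, and the log2 change in Early was -2.21 ± 0.32 (SE; limma adjusted p = 0.00176). The lowest of chromosome 17 was chr17:56745119-56745289, with 2.49 to 4.55 RPKM in Basal and 0.542, 1.41 and 0.867 in Early, a log2 change of -1.91. On chromosome 19 it was chr19:10321674-10321844, with 1.84 to 4.01 RPKM in Basal and 0.325 to 0.867 in Early, a log2 change of -2.05. At chr17:12238956-12239106 Early differed from Late as well. Early held 0.369, 0.614 and 0.737 RPKM, Basal 1.35 to 3.32 and Late 1.72 to 2.46. Its log2 change was -1.89 in Early (limma adjusted p = 0.00233) and -0.46 in Late (limma adjusted p = 0.21), and Late exceeded Early by 1.42 (limma adjusted p = 0.038). These 12 regions rest on 1 to 182 reads per library. The lowest Basal value was 1 read at chr17:15759984-15760148 (0.112 RPKM), chr19:50840739-50840998 (0.0711) and chr19:17088310-17088466 (0.118), so the rises there start near the floor.

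In Late against Basal 3897 members passed (27.6%), fewer than the 30.5% of all tested regions, with 1642 higher (11.6%, against 14.3%) and 2255 lower (16%, against 16.2%). By chromosome the lower shares were 15.6%, 17.8% and 14.9% on chromosomes 11, 17 and 19. Regions of 1000 bases or more on chromosome 17 were lower in 33.2% of cases and higher in 4.11%, against 16.7% and 12.6% on the reference autosomes. With the deposited RPKM the split was 2903 higher and 698 lower, as the median of all tested regions then lay at 0.33. No member passed once the 4 Late libraries were averaged to 1 sample, a fit in which 2071 members had an unadjusted limma p under 0.05. Among the largest rises was chr11:92333469-92333704, with 0.157 to 0.392 RPKM in Basal and 2.57, 3.14, 3.05 and 2.72 in Late. Its log2 change was 2.21 (limma adjusted p = 0.000261). Among the falls, chr17:78750191-78750357 went from 2.11 to 4.88 RPKM in Basal to 0.649, 0.261, 1.91 and 0.256 in Late, a log2 change of -2.33 (limma adjusted p = 0.000846).

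In Reactivated against Late few regions passed anywhere. Among the members 134 did (0.95%, against 1.07% of all tested regions), with 98 higher (0.695%, against 0.711%) and 36 lower (0.255%, against 0.36%). These shares stand close to the background. By groups without overlap, 2276 members were higher (16.1%, against 12% of all tested regions) and 524 lower (3.72%, against 6.3%). Of the 98 higher members 69 were 1000 bases wide or more, and of the 36 lower members none was. On the reference autosomes the wide regions likewise held 863 of the 1101 higher calls and 23 of the 545 lower. Of the wide members 2.69% were higher, against 3.05% of all wide tested regions, and 0% were lower, against 0.0873%. These wide shares were thus no larger than the background. The count of called members was 27 with the deposited RPKM, 7 higher and 20 lower. It lay between 9 (without Reactivated replicate 3) and 306 (without Early replicate 1) when 1 library was left out, and it moved by over 1.5 times for 12 of the 14 libraries. Of the 1892 members lower in Early than in Basal, 19 (1%) were higher in Reactivated than in Late, or 19.4% of those 98. Over all tested regions the same overlap was 177, or 1.57% and 14.5%.

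Among the named falls in Reactivated, 3 regions were high in Late. At chr17:81941615-81942269 Late held 4.05, 4.31, 3.78 and 4.65 RPKM, while Basal held 0.62 to 1.27, Early 0.564 to 0.93 and Reactivated 0.87, 0.423 and 1.21. The 4 Late libraries were above the other 10, with a log2 change of -2.05 in Reactivated against Late (limma adjusted p = 0.00517). Its mean over the other 10 libraries was 0.834 RPKM, just over the limit for members. At chr19:19858099-19858286, 187 bases wide, Late held 3.22, 3.48, 3.27 and 3.07 RPKM and all other libraries between 0.493 and 1.08. At chr17:52950181-52950455 Late held 2.23 to 3.88 RPKM and the others 0.336 to 1.41. Outside Late these last 2 regions had means of 0.746 and 0.765 RPKM, so they passed the limit through the group in which they were high, and their values are given as a description. In the other direction chr19:61275355-61275944 held 15, 9.73 and 11 RPKM in Reactivated against 4.75, 4.23, 3.91 and 3.97 in Late and 3.91 to 8.79 in Basal and Early. It rose by 1.36 in log2 (limma adjusted p = 0.00484). Apart from the strongest regions described last, the other named rises in Reactivated were at wide regions of high level, such as chr17:64680679-64682239, with 12.2, 11.9 and 12.7 RPKM against 4.78 to 5.1 in Late, a log2 change of 1.20 (limma adjusted p = 0.0118, lost under 7 of 22 settings).

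The other 3 comparisons gave 162 members for Late against Early (140 higher and 22 lower; 0.735% of all tested regions passed, 0.468% higher and 0.267% lower), 2180 for Reactivated against Basal (1308 higher and 872 lower; 20.1%, 10.1% and 9.96%) and 924 for Reactivated against Early (874 higher and 50 lower; 3.44%, 2.42% and 1.02%). The share of members higher in Reactivated than in Early was 6.2%, and on chromosome 17 it was 7.65%. With the deposited RPKM the split for Reactivated against Basal was 3475 higher and 330 lower. No member passed in that comparison with the in-region read share as covariate, when 1677 had an unadjusted limma p under 0.05, and that share was higher in all 3 Reactivated libraries than in all 4 Basal ones. At chr19:57239482-57239671 Basal held 0.39 to 0.487 RPKM and Early 0.293, 1.76 and 0.293, while Late held 1.61 to 2.7 and Reactivated 2.73, 2.15 and 4.19. This region rose by 1.37 from Early to Late (limma adjusted p = 0.039) and was higher in Reactivated than in Basal by 1.83 (limma adjusted p = 0.0025).

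The strongest regions of chromosomes 17 and 11 were high in Basal and Reactivated and lowest in Late, an order that the chromosome offsets did not have. The region of highest mean level on chromosome 17, and of all members, was chr17:39979978-39985726, 5748 bases wide, with a mean of 55.7 RPKM. It held 90.7, 75.8, 89.7 and 86.8 RPKM in Basal, 30.1, 33.6 and 37.7 in Early, 14.9, 13.8, 15.6 and 14.1 in Late and 100, 87.2 and 90.2 in Reactivated. Basal and Reactivated were high, Early was intermediate and Late lowest, with no overlap between Early, Late and the other groups. The log2 change was -1.65 in Early against Basal (limma adjusted p = 0.000723), -2.93 in Late against Basal (limma adjusted p = 6.21e-07), 2.58 in Reactivated against Late (limma adjusted p = 5.17e-06) and -0.35 in Reactivated against Basal (limma adjusted p = 0.184). These changes are on the level divided by the column median. On that scale Reactivated, at 62.4 to 69.1, lay below Basal, at 76.5 to 98.6, while its mean deposited RPKM was higher (92.5 against 85.8). The region rests on 3650 to 32346 reads per library. Whether it lies in repeated sequence was not checked, for want of an mm9 annotation here, and the labels do not say how reads that match several places were assigned, so its level may include reads from other copies. The same holds for the next region.

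On chromosome 11 the highest region was chr11:108872960-108873401, 441 bases wide. It held 38.8, 36.2, 39.9 and 38.6 RPKM in Basal, 12.9, 15.2 and 17.8 in Early, 9.67, 9.88, 11.9 and 10.1 in Late and 41.4, 36.8 and 41.8 in Reactivated. The group means had the same order, but Late less Early did not pass (-0.62, limma adjusted p = 0.102), while on chromosome 17 it did (-1.28, limma adjusted p = 0.0071). The log2 change was -1.63 in Early (limma adjusted p = 0.000723), -2.26 in Late (limma adjusted p = 8.62e-06) and 1.86 in Reactivated against Late (limma adjusted p = 0.000175). Divided by the column median, Basal held 32.7 to 43.9 and Reactivated 27.3 to 28.9. The highest region of chromosome 19, chr19:25035786-25036498, had a mean of 7.87 RPKM and no such pattern. Its values were 14, 6.29, 4.4 and 6.52 RPKM in Basal, 4.14, 14.4 and 10.6 in Early, 4.72, 5.18, 4.89 and 4.66 in Late and 11.6, 8.36 and 10.6 in Reactivated. Basal and Early overlapped throughout, and only Late less Basal passed, at -0.91 (limma adjusted p = 0.013).

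**Figure D5:**
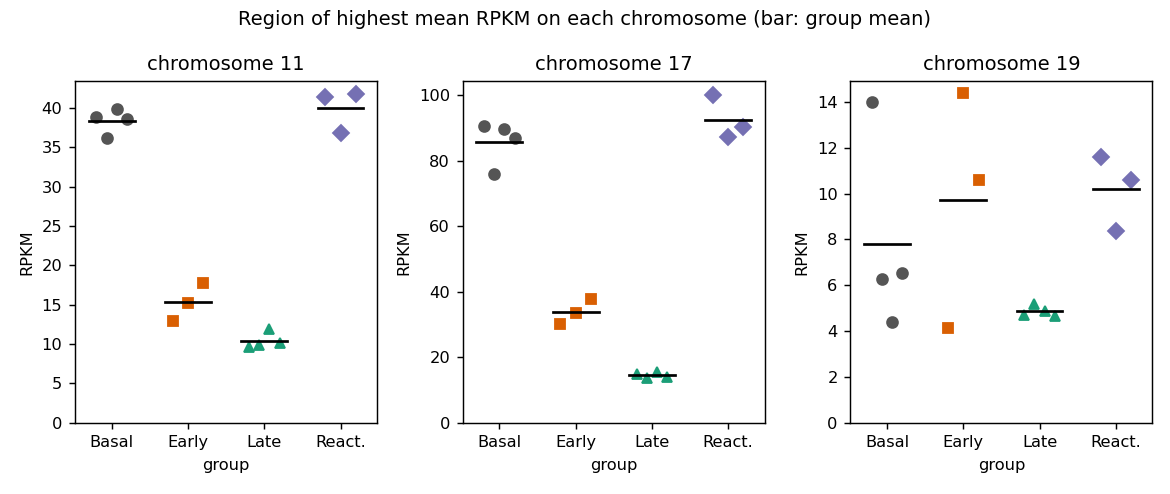
Deposited RPKM, not divided by the column median (vertical axes, each from 0 with its own scale), of the region of highest mean on chromosomes 11, 17 and 19 in each library, by group, with the bar as the group mean. On chromosomes 11 and 17 Basal and Reactivated lie high and Late lowest (9.67 to 11.9 and 13.8 to 15.6 RPKM), while on chromosome 19 Basal and Early spread over 4.14 to 14.4 RPKM.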

How the data were processed

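The authors deposited RPKM values (read density scaled for region length and library depth) for 191271 regions in 14 libraries. Per the submitters' processing notes, the build was mm9 and the tools included MACS2, DESeq2, DiffBind, SAMtools and Bowtie2 2.0, with no order or settings. Read shift, duplicate removal and placement of repeated reads are not given in the sources used here.

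Low values were whole multiples of 1 read in 100% of cases (tolerance 0.01), which gave reads per region. Each column was divided by its median, and log2(value + 0.25) was fitted with limma 3.58.1 (trend, robust; R 4.3.3) over all 14 libraries and the 172024 regions with a mean of at least 0.83 RPKM. P-values were adjusted by Benjamini-Hochberg over all of them. Medians of 501 autosomal 5 Mb windows with 20 or more regions, less the reference autosomes, were fitted the same way. Chromosome offsets had 2-sided exact permutation tests over libraries (Python 3.11.15, numpy 2.4.6), adjusted over 18 tests.

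Regions were named by a rule: on each chromosome, past the test, without overlap and above the median level, the 2 largest changes each way in each of Early less Basal, Late less Basal and Reactivated less Late, and 1 each way in the other comparisons. The window with the highest and the lowest difference per chromosome in those first 3 comparisons and the region of highest mean per chromosome were named too. Other windows and stretches were picked after their values were seen. The members, lists and rules were chosen with earlier results of these data known. The scripts were tested on simulated data. Alternatives were the deposited scale, median-of-ratios scaling, a pseudocount of 1, no filter, a replicate block, only the 2 groups compared, the Late libraries averaged to 1 sample (they differed least from each other and may not all be separate replicates; the lone sample is then assumed to vary like the other groups), 10 Mb windows, chromosome 7 in the reference, matching on length and level, and each library left out; the in-region read share as covariate was added after seeing the data. Gene counts per chromosome came from RefSeq (GRCm38.p6), with chromosome length as the end of the last mm9 region.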

Additional observations from a re-analysis of the deposited data

Results flagged for a closer look

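In groups of 4 libraries, a single library stood far from the other 3 in 8 of the 128 groups examined, and chance alone flags about 1 in 20. In the first windows of chromosome 19, Basal replicate 2 was low: 0.209 from 0 to 5 Mb, where the other Basal libraries held 0.471 to 0.522, and 0.204 from 5 to 10 Mb, where they held 0.382 to 0.401 (log2, relative to the reference autosomes). In the window of chromosome 11 from 25 to 30 Mb, Late replicate 2 was -0.00545, against 0.0164 to 0.0186.

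Among single regions, Basal replicate 1 held 0.347 RPKM at chr11:27382853-27383278, against 0.434 in the other 3, and 0.487 RPKM at chr19:57239482-57239671, against 0.39. It was the highest Basal library at chr19:17633201-17633354, with 2.89 RPKM against 1.81 to 1.93. Basal replicate 4 was the lowest at chr11:70338630-70338994, with 1.01 RPKM against 1.82 to 1.97, and at chr19:17319205-17319450, with 0.451 RPKM against 1.28 to 1.35.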

How the results depend on the processing

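Of the 18 chromosome differences, 14 kept their sign under every alternative. Those of chromosome 17 in Reactivated less Basal turned to -0.0442 with the in-region read share as covariate and -0.02 without Reactivated replicate 1 (range over left-out libraries -0.0166 to 0.0534), and chromosome 19 turned to -0.0306 with the covariate. On chromosome 19, leaving out 1 library moved Early less Basal from -0.0614 to 0.0529 and Late less Early from -0.1058 to 0.0097. The sizes of other chromosome differences also moved by over 1.5 times without 1 library: Late less Early on chromosome 11 was 0.0589 without Early replicate 1, Reactivated less Basal on chromosome 11 was 0.0291 without Reactivated replicate 1, and Late less Basal ran from -0.0408 to -0.0136 on chromosome 11 and from -0.0778 to -0.0065 on chromosome 19. The window of chromosome 19 from 15 Mb in Reactivated less Late turned to -0.0098 with the covariate.

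Counts of called members moved by over 1.5 times in the settings below; the range without 1 library is given for every comparison and moved less than that in Late less Basal. In Early less Basal (2752) they were 1777 with the deposited scale, 1727 with the replicate block, 1189 with only the 2 groups, 1740 with Late averaged and 1139 (without Early replicate 2) to 2904 without 1 library. In Late less Basal (3897) they were 0 with Late averaged and 2814 to 4237 without 1 library. In Late less Early (162) they were 74 with the deposited scale, 94 with a pseudocount of 1, 14 with the block, 12 with 2 groups, 0 with Late averaged (615 at an unadjusted limma p under 0.05), 687 with the covariate and 11 to 641 without 1 library (641 without Early replicate 2, and 11 to 45 without Early replicate 3 or any Late library). In Reactivated less Basal (2180) they were 3805 with the deposited scale, 1408 with Late averaged, 0 with the covariate and 897 to 2627 without 1 library (1407, 1315 and 897 without Basal replicate 3 and Reactivated replicates 2 and 3). In Reactivated less Early (924) they were 445 with the deposited scale, 300 with the block, 0 with 2 groups or with Late averaged (3543 at an unadjusted limma p under 0.05 in the latter), and 54 to 1643 without 1 library (114, 1643 and 454 without Early replicates 1, 2 and 3, and 54, 568 and 426 without Reactivated replicates 1, 2 and 3). In Reactivated less Late (134) they were 27 with the deposited scale, 10 with the block, 557 with 2 groups, 0 with Late averaged (406 at an unadjusted limma p under 0.05) and 9 to 306 without 1 library.

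The number of member windows tested went from 57 to 30 at 10 Mb, which gave 19, 8, 15, 3, 21 and 3 calls in Early less Basal (40), Late less Basal (18), Late less Early (29), Reactivated less Basal (5), Reactivated less Early (42) and Reactivated less Late (0). The block gave 10 in Late less Basal, 13 in Late less Early and 2 in Reactivated less Basal. Late averaged gave 0 (12 at an unadjusted limma p under 0.05), 4 and 2 in the same comparisons, and no filter gave 6 in Reactivated less Late. The covariate gave 0 in Reactivated less Basal. Without 1 library the ranges were 32 to 43, 9 to 21, 19 to 35, 2 to 13, 36 to 46 and 0 to 19 in the order above. Those that moved a window count by over 1.5 times were Basal replicates 1, 3 and 4 and Late replicates 1 and 3 in Late less Basal (9 to 11), Late replicate 2 in Late less Early (19), and Basal replicates 2 and 3, Early replicates 1 and 2 and Reactivated replicate 3 in Reactivated less Basal (2, 2, 13, 8 and 3). Of the called windows, 14 of 40, 9 of 18, 14 of 29, 3 of 5 and 9 of 42 in the first 5 comparisons did not pass without some library. The cause of these changes was not tested.

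No named region changed sign in 1166 refitted values, and 148 lost their call. Replicate numbers did not pair the libraries: same-numbered libraries correlated by -0.223 to 0.0651 and correlated best with their own number in 6 of 38 cases. The median member held 25 to 50 reads, and libraries of a group differed by more than counting error.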
